A study of Mus musculus with 6 samples.

Results

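The D cyclins, their kinase partners and the inhibitors of those kinases were followed in whole uteri of pregnant mice as a set of 10 genes: *Ccnd1*, *Ccnd2*, *Ccnd3*, *Cdk4*, *Cdk6*, *Cdkn1a*, *Cdkn1b*, *Cdkn2a*, *Cdkn2b* and *Cdkn2c*. The genes share this function, were chosen with earlier results of these data known, and were found by matching the gene identifiers of the deposited tables to mouse symbols. The imprinted inhibitor gene *Cdkn1c* (p57) was left out of the set. All 10 of them, of 56748 genes listed, passed the filter on low counts that left 16605 genes for the test.

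D cyclins are made in response to growth signals and bind CDK4 or CDK6. The active kinase phosphorylates the retinoblastoma protein and its relatives, which releases E2F transcription factors and lets a cell pass from G1 into S phase. INK4 proteins (p16, p15 and p18, from *Cdkn2a*, *Cdkn2b* and *Cdkn2c*) bind CDK4 and CDK6 directly, whereas the Cip/Kip proteins p21 (*Cdkn1a*) and p27 (*Cdkn1b*) bind cyclin and kinase complexes and are best known for inhibiting CDK2. In the mouse uterus around implantation, epithelial proliferation ceases under progesterone while stromal cells proliferate and then decidualize, a process in which cyclin D3 has a known role.

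Uteri of 3 control and 3 *Gp130* ecKO females on a C57BL/6 background (C57BL/6J in the methods of the study) were collected at 1600 h on day 4 of pregnancy. The labels give the control genotype as WT, and the methods of the study describe control females as floxed *Gp130* without iCre or as wildtype. *Gp130* ecKO females carried floxed *Gp130* (*Il6st*), the receptor subunit shared by LIF and IL-6 family cytokines, and the *Ltf*-iCre allele, which is active in the uterine epithelium of sexually mature females. *Ltf* is also expressed in some blood cells such as neutrophils, and the RNA came from the whole organ, so that stroma, muscle and vessels contributed to every value. The labels do not state that replicates were separate animals, and p-values measure only the spread between these samples.

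Total expected counts ranged from 13960748 in control 3 to 25906443 in control 2, so that weakly expressed genes were measured least precisely in control 3. Values per uterus are CPM, counts scaled to a common library size after TMM, and p-values by quasi-likelihood in edgeR were Benjamini-Hochberg adjusted across 16605 genes. *Il6st* had a CPM of 631, 678 and 452 in control replicates 1 to 3 and of 388, 349.8 and 362 in *Gp130* ecKO replicates 1 to 3. All *Gp130* ecKO uteri were below all control uteri, with a log2 fold change of −0.68 (SE 0.21, adjusted p = 0.120 by quasi-likelihood in edgeR and 0.0364 by DESeq2, n = 3 per group) in counts that cover the whole gene and not its deleted stretch alone. Along the first principal component, which held 51.4% of the variance, control 2 (9.67) lay nearer than control 1 (54.2) and control 3 (75.5) to the *Gp130* ecKO uteri (−59.4 to −37.7).

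The RNA of the D cyclin and inhibitor genes did not pass the test for any member. At an FDR of 0.05, edgeR's quasi-likelihood test called 0 of the 10 genes, beside 0.157% of all genes tested. At an unadjusted p below 0.05, 6 of the 10 were lower in *Gp130* ecKO (*Ccnd1*, *Ccnd3*, *Cdk4*, *Cdkn1a*, *Cdkn2a* and *Cdkn2b*) and 0 were higher, beside 12.9% of all genes lower and 12.1% higher. DESeq2 called 1 of the 10 at an FDR of 0.05, *Cdkn1a* with an adjusted p of 0.0276, beside 13.1% of the genes it gave an adjusted p. Every *Gp130* ecKO uterus lay below every control uterus for 5 members (*Ccnd1*, *Ccnd3*, *Cdk4*, *Cdkn1a* and *Cdkn2b*), beside 15.6% of all genes, and above for 1 member (*Cdkn1b*), beside 15.7%. For each of these 6 genes an exact two-sided permutation test gave p = 0.1, the smallest value that 3 against 3 uteri allow. Groups that do not overlap always give this value, so the test adds nothing to the lack of overlap. The median log2 fold change of the 10 genes was −0.68, beside −0.05 over all tested genes.

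**Figure D1:**
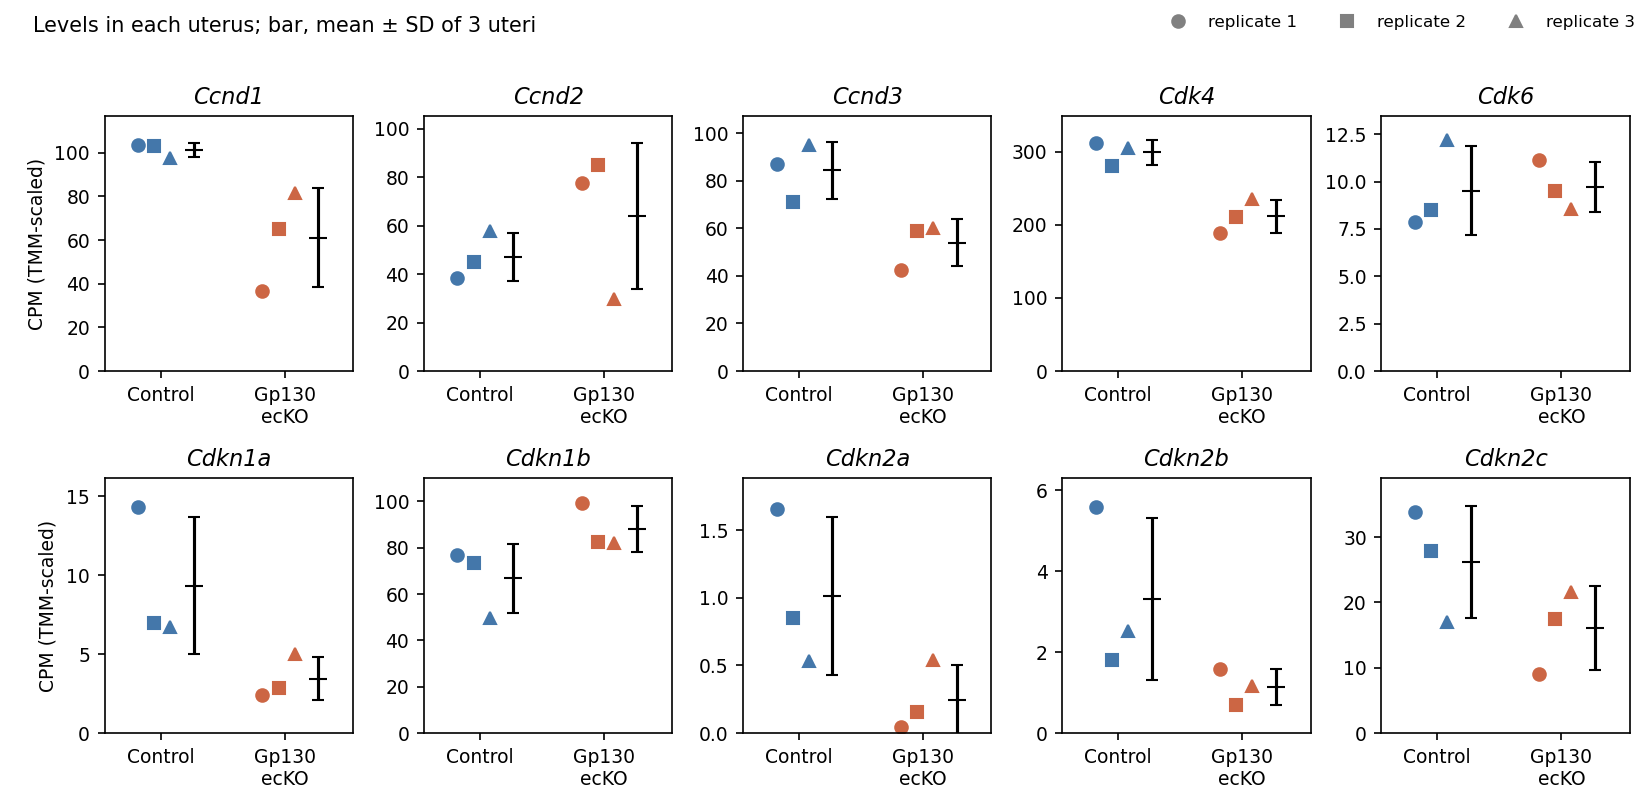
CPM of the 10 genes (vertical axes, each from 0) in the 3 control and 3 *Gp130* ecKO uteri, 1 point per uterus, with the mean and SD of each group as a black bar. The groups are apart for *Ccnd1*, *Ccnd3*, *Cdk4*, *Cdkn1a* and *Cdkn2b*, with *Gp130* ecKO lower, and for *Cdkn1b*, with *Gp130* ecKO higher.

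Among the D cyclins, *Ccnd1* and *Ccnd3* were lower in all *Gp130* ecKO uteri, and *Ccnd2* was not. *Ccnd1* (ENSMUSG00000070348, chr7:144483668-144493662, minus strand, GRCm39) encodes cyclin D1, an early target of growth factor and estrogen signals. Its CPM was 104, 103 and 97.5 in control replicates 1 to 3 and 36.7, 65.0 and 81.7 in *Gp130* ecKO replicates 1 to 3. The control uteri were nearly level, whereas the *Gp130* ecKO uteri were spread widely below them, with *Gp130* ecKO 1 the lowest. The means were 101 ± 3.37 and 61.1 ± 22.7 (SD, n = 3 each), and the log2 fold change was −0.73 (SE 0.28, adjusted p = 0.167 by quasi-likelihood in edgeR). *LTO1*, a gene on the opposite strand, shares 46.2% of the 75-base stretches of the *Ccnd1* transcripts, and whether strand was used in counting is not given in the sources used here. *LTO1* itself had a CPM of 24.9 to 30.1 in the controls and 20.6 to 25.1 in the knockouts (−0.27 on the log2 scale, adjusted p = 0.387), which is less than *Ccnd1* in every uterus.

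*Ccnd3* (ENSMUSG00000034165, chr17:47815767-47910624, plus strand, GRCm39) encodes cyclin D3. Its CPM was 87.2, 71.2 and 94.8 in control replicates 1 to 3, and 42.6, 59.0 and 60.1 in *Gp130* ecKO replicates 1 to 3. The groups did not overlap, and control 2 came nearest to the *Gp130* ecKO uteri. The means were 84.4 ± 12.0 and 53.9 ± 9.78 (SD, n = 3 each), with a log2 fold change of −0.65 (SE 0.20, adjusted p = 0.119 by quasi-likelihood in edgeR). RSEM assigned *Ccnd3* reads to transcripts of different length in different uteri, with an effective length of 1900 in control 2 and 1570 in *Gp130* ecKO 2. In the deposited TPM, which divides by that length, control 2 (48.6) was below *Gp130* ecKO 2 (56.6), and the groups overlapped. *Bysl*, which overlaps *Ccnd3* on the other strand and shares 2.67% of its 75-base stretches, was also lower in all *Gp130* ecKO uteri (log2 fold change −0.56, adjusted p = 0.167).

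*Ccnd3* had the smallest p of the D cyclins, and for that reason the stretch before its canonical first exon is shown (222 bases, chr17:47904142-47904363, plus strand, GRCm39, 66.2% GC). Here and for *Cdkn1a* below, the sequence is from RefSeq (GRCm38.p6 table, 8 of the 10 genes matched), placed on GRCm39 by exact match. Capitals mark the GC box, GGGCGG read on either strand, which binds Sp1-type factors.
Ccnd3 canonical start: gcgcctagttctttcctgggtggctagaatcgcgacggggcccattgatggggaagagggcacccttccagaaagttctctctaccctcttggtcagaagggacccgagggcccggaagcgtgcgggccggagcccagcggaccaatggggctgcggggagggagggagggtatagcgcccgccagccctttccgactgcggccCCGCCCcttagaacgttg
The GC box begins 18 bases before the exon, and 28.8% of 32851 promoter stretches of this length hold at least 1.

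*Ccnd2* (ENSMUSG00000000184, chr6:127102125-127129156, minus strand, GRCm39) encodes cyclin D2. Its CPM was 38.4, 44.9 and 57.9 in control replicates 1 to 3 and 77.7, 85.0 and 29.6 in *Gp130* ecKO replicates 1 to 3. *Gp130* ecKO 1 and 2 were above all controls and *Gp130* ecKO 3 was below them all, and the groups overlapped. Its log2 fold change was 0.45 (SE 0.38, adjusted p = 0.485 by quasi-likelihood in edgeR).

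*Cdk4* (ENSMUSG00000006728, chr10:126895180-126903789, plus strand, GRCm39), the main kinase partner by RNA level, was lower in all *Gp130* ecKO uteri. Its CPM was 312, 279.9 and 305 in control replicates 1 to 3, and 189, 211 and 235 in *Gp130* ecKO replicates 1 to 3. The groups did not overlap, and the gap between their ranges was wider than the SD of either group. The means were 299 ± 17.0 and 212 ± 22.8 (SD, n = 3 each), and the log2 fold change was −0.50 (SE 0.16, adjusted p = 0.127 by quasi-likelihood in edgeR, 0.0528 to 0.3501 over the alternatives). *Tspan31*, which overlaps *Cdk4* on the opposite strand over 11.7% of its 75-base stretches, had a log2 fold change of 0.09 (adjusted p = 0.732).

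*Cdk6* (ENSMUSG00000040274, chr5:3391485-3581008, plus strand, GRCm39) encodes the other D cyclin kinase and was counted at a low level. Its CPM was 7.85, 8.48 and 12.2 in control replicates 1 to 3 and 11.1, 9.50 and 8.54 in *Gp130* ecKO replicates 1 to 3. The range of the *Gp130* ecKO uteri lay within that of the controls. The log2 fold change of 0.04 (SE 0.28, adjusted p = 0.940 by quasi-likelihood in edgeR) turned to −0.04 with upper quartile scaling and to −0.02 with library totals.

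The 2 Cip/Kip genes of the set lay in opposite directions, with *Cdkn1a* lower and *Cdkn1b* higher in all *Gp130* ecKO uteri. *Cdkn1a* (ENSMUSG00000023067, chr17:29309936-29319701, plus strand, GRCm39) encodes p21, a direct target of p53 that halts the cycle and is also induced by other signals. Its CPM was 14.3, 6.98 and 6.73 in control replicates 1 to 3, from 354, 181 and 101 counts. In *Gp130* ecKO replicates 1 to 3 it was 2.44, 2.88 and 5.02, from 54, 75 and 121 counts. Control 1 stood far above the other controls, and *Gp130* ecKO 3 came closest to the control range without reaching it. The log2 fold change was −1.44 (SE 0.44, adjusted p = 0.118 by quasi-likelihood in edgeR), with an adjusted p of 0.0276 to 0.314 over the alternatives. *Cdkn1a* had the smallest p of the 10 genes.

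For that reason the stretches before its annotated starts are shown. The upstream start (233 bases, chr17:29309703-29309935, plus strand, GRCm39, 53.2% GC) carries in capitals a match to the p53 element, the 20-letter sequence bound by p53, with at most 1 letter off its consensus. The canonical start (245 bases, chr17:29312493-29312737, plus strand, GRCm39, 64.9% GC) carries GC boxes in capitals.
Cdkn1a upstream start: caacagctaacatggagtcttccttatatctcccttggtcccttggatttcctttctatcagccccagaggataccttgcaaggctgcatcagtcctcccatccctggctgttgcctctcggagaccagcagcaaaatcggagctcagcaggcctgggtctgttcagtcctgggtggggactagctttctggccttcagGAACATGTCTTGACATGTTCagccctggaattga
Cdkn1a canonical start: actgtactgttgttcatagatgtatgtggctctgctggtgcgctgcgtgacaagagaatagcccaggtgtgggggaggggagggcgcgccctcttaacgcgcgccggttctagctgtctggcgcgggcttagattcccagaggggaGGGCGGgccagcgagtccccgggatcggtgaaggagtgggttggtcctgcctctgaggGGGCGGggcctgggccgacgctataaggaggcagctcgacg
The p53 element begins 34 bases before the upstream exon, and 0.0761% of 32851 promoter stretches of that length hold one. It was searched for after the sequence had been read. The canonical start has 2 GC boxes, which begin 99 and 41 bases before the exon, and 32.1% of stretches of that length hold at least 1. None of the 3 stretches shown for *Ccnd3* and *Cdkn1a* has the letters of a GAS element (TTCNNNGAA, in 6.31 to 6.90% of stretches), an AP-1 element (TGANTCA, 6.16 to 6.66%), an E-box (CACGTG, 5.06 to 5.85%) or a FOXO element (GTAAACA, 2.82 to 3.11%), searched on both strands.

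*Cdkn1b* (ENSMUSG00000003031, chr6:134897364-134902476, plus strand, GRCm39) encodes p27, an inhibitor that accumulates in resting and differentiating cells. Its CPM was 77.0, 73.7 and 49.9 in control replicates 1 to 3 and 99.3, 82.6 and 82.2 in *Gp130* ecKO replicates 1 to 3. Controls 1 and 2 were close below the *Gp130* ecKO uteri, and control 3 was well below. The means were 66.9 ± 14.8 and 88.1 ± 9.76 (SD, n = 3 each), with a log2 fold change of 0.40 (SE 0.21, adjusted p = 0.268 by quasi-likelihood in edgeR). Without control 3 the log2 fold change was 0.23, the smallest with any 1 uterus left out. In the deposited TPM the groups overlapped, at 28.0 to 41.5 in the controls and 40.8 to 55.1 in *Gp130* ecKO.

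All 3 INK4 genes of the set had lower means in *Gp130* ecKO, and in CPM the groups were apart for *Cdkn2b* alone. *Cdkn2a* (ENSMUSG00000044303, chr4:89192708-89212890, minus strand, GRCm39) gives p16Ink4a and, from another first exon, p19Arf, which stabilizes p53, and its gene count does not tell these apart. It was close to the limit of detection, with 41, 22 and 8 counts in control replicates 1 to 3 (CPM 1.66, 0.848 and 0.533) and 1, 4 and 13 counts in *Gp130* ecKO replicates 1 to 3 (CPM 0.0452, 0.154 and 0.539). *Gp130* ecKO 3 was level with control 3, and the groups were not apart in CPM, although they were narrowly apart in TPM (0.900 to 2.50 and 0.0800 to 0.810). With these counts the log2 fold change was −2.05 (SE 0.75, adjusted p = 0.158 by quasi-likelihood in edgeR).

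*Cdkn2b* (ENSMUSG00000073802, chr4:89223204-89229276, minus strand, GRCm39), its neighbour, encodes p15, known as a target of TGF-beta signals. Its CPM was 5.58, 1.81 and 2.53 in control replicates 1 to 3, from 138, 47 and 38 counts, and 1.58, 0.692 and 1.16 in *Gp130* ecKO replicates 1 to 3, from 35, 18 and 28 counts. Control 1 stood far above all other uteri, and control 2 was only slightly above *Gp130* ecKO 1. The log2 fold change of −1.55 (SE 0.55, adjusted p = 0.149 by quasi-likelihood in edgeR) became −0.89 in the fit where it was smallest, with 1 uterus left out.

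*Cdkn2c* (ENSMUSG00000028551, chr4:109517957-109524386, minus strand, GRCm39) encodes p18 and was the most abundant INK4 gene of the set. Its CPM was 33.9, 27.8 and 16.9 in control replicates 1 to 3 and 9.13, 17.5 and 21.7 in *Gp130* ecKO replicates 1 to 3. Control 3 lay within the *Gp130* ecKO range, and the log2 fold change was −0.71 (SE 0.38, adjusted p = 0.281 by quasi-likelihood in edgeR). *Cdkn2d*, the remaining INK4 gene, had a log2 fold change of −0.45 (adjusted p = 0.487) with overlapping groups.

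To compare levels between genes, the deposited TPM, which is scaled for transcript length, was used. *Cdk4* was far above the other genes in both groups, with a mean TPM of 581 ± 51.2 in the controls and 407 ± 31.0 in *Gp130* ecKO (SD, n = 3 each). In the controls it was followed by *Ccnd3* (66.2 ± 22.0), *Ccnd1* (36.4 ± 1.32), *Cdkn1b* (35.6 ± 6.93), *Cdkn2c* (22.7 ± 6.50), *Ccnd2* (10.8 ± 2.38), *Cdkn1a* (7.15 ± 2.67), *Cdkn2b* (3.23 ± 1.79), *Cdkn2a* (1.58 ± 0.827) and *Cdk6* (1.20 ± 0.240). Neighbours in this order whose ranges over the 3 uteri overlapped were *Ccnd1* with *Cdkn1b*, *Ccnd2* with *Cdkn1a*, *Cdkn2b* with *Cdkn2a*, and *Cdkn2a* with *Cdk6*. In *Gp130* ecKO, *Cdkn1b* came directly after *Cdk4* with a mean TPM of 48.9 ± 7.32, but its range overlapped that of *Ccnd3* (44.5 ± 11.5). *Cdk6* reached 1.62 ± 0.507 TPM in *Gp130* ecKO, a value that also carries an effective length differing up to 1.59-fold between uteri.

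The make-up of the D cyclin RNA differed among the *Gp130* ecKO uteri themselves. *Ccnd2* made up 8.84, 10.3 and 9.55% of the summed D cyclin TPM in control replicates 1 to 3, and 26.5, 20.3 and 7.76% in *Gp130* ecKO replicates 1 to 3. *Gp130* ecKO 1 and 2 thus had a larger *Ccnd2* share than any control, and *Gp130* ecKO 3 had the smallest share of all in TPM. With CPM divided by the mean effective length instead, control 1 had the smallest share (7.53%, against 7.98% in *Gp130* ecKO 3). *Ccnd3* remained the largest D cyclin in each uterus, at 51.0 to 64.1% of the sum in the controls and 51.2 to 56.3% in *Gp130* ecKO.

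Among the 5 inhibitors of the set, p27 RNA took the largest share in every uterus. *Cdkn1b* made up 45.3, 54.5 and 53.7% of the summed inhibitor TPM in control replicates 1 to 3 and 80.6, 71.0 and 62.7% in *Gp130* ecKO replicates 1 to 3, so that the groups did not overlap in this share. The summed TPM of the D cyclins over that of *Cdkn1b* was 2.75, 2.30 and 5.06 in control replicates 1 to 3 and 1.19, 2.07 and 1.88 in *Gp130* ecKO replicates 1 to 3. In this ratio no *Gp130* ecKO uterus reached the lowest control, with control 3 standing apart at the top. The ratio was not planned, and it takes in only the inhibitor gene that was higher in *Gp130* ecKO. *Gp130* ecKO 2 had a higher D cyclin sum (105) than control 1 (103) and control 2 (95.5). Its sum of all 5 inhibitors (71.4) was lower than theirs (82.7 and 76.1). Set against all 5 inhibitors, the D cyclin sums therefore do not separate the groups. These shares and ratios are descriptions and were not tested.

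**Figure D2:**
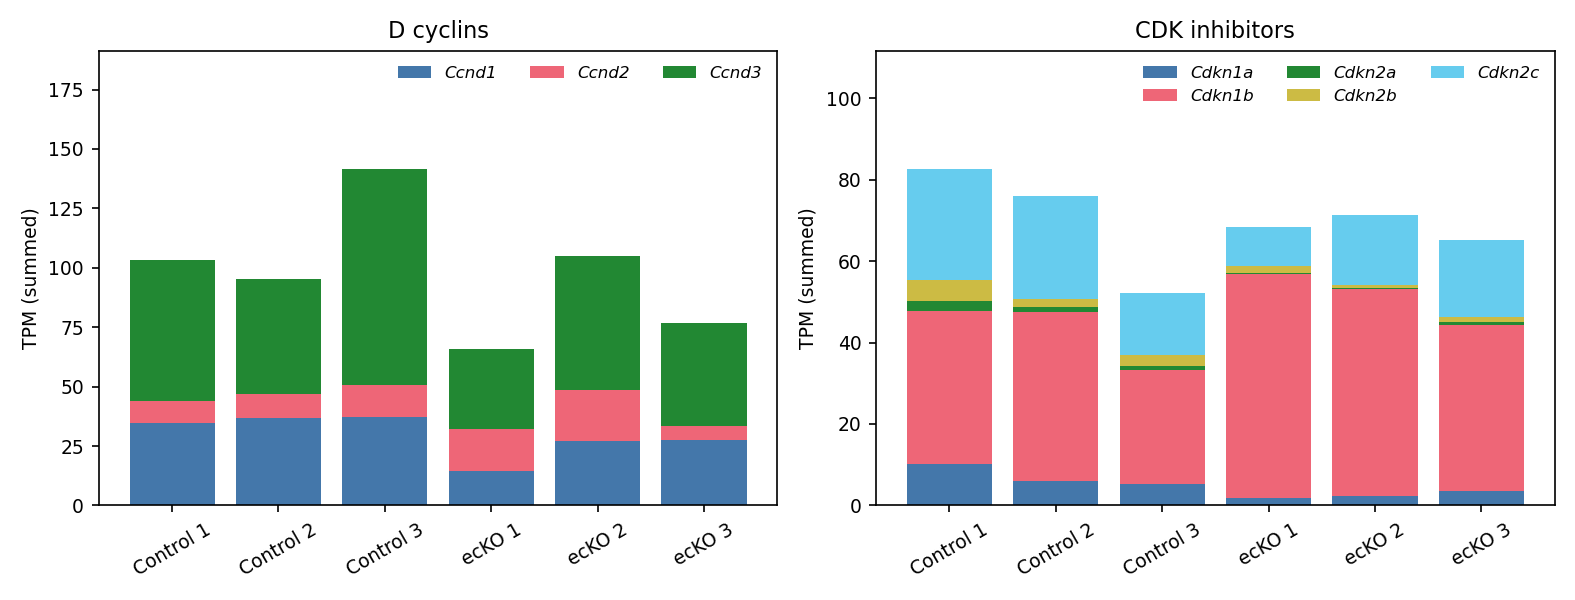
Deposited TPM summed over the D cyclins (left) and over the CDK inhibitors (right) in each uterus, with 1 coloured segment per gene. *Cdkn1b* is the largest inhibitor segment in each uterus, and *Ccnd2* takes 26.5 and 20.3% of the D cyclin bar in *Gp130* ecKO 1 and 2 and 7.76% in *Gp130* ecKO 3.

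How far single uteri carried these values was examined by leaving out each uterus in turn. The log2 fold change ranged from −0.97 to −0.47 for *Ccnd1*, −0.72 to −0.50 for *Ccnd3* and −0.56 to −0.42 for *Cdk4*. For the inhibitors it ranged from −1.79 to −0.96 (*Cdkn1a*), 0.23 to 0.53 (*Cdkn1b*), −3.25 to −1.48 (*Cdkn2a*), −1.84 to −0.89 (*Cdkn2b*) and −0.96 to −0.42 (*Cdkn2c*). *Ccnd2* ranged from 0.19 to 0.81 and *Cdk6* from −0.07 to 0.25, the only member whose sign changed in these fits. The number of members at an unadjusted p below 0.05, which was 6 with all uteri, was 1 without control 1 (*Ccnd3*) and 2 without *Gp130* ecKO 2 (*Ccnd3* and *Cdkn1a*), and 4 to 6 without any other uterus.

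**Figure D3:**
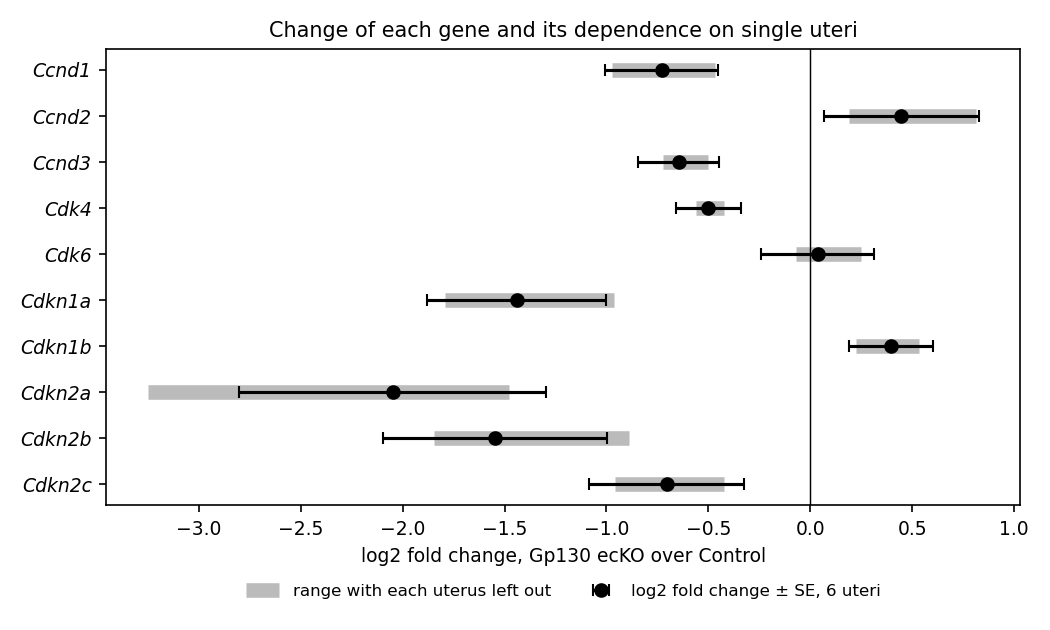
Log2 fold change of *Gp130* ecKO over control for each gene (horizontal axis), with a point and bar for the estimate ± SE from all 6 uteri and a grey band for the range when each uterus was left out. *Cdk4* and *Ccnd3* have the narrowest bands below 0, *Cdkn2a* has the widest, and the band of *Cdk6* spans 0.

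Markers of the cell types in the uterus also differed between these libraries, and fewer cells of a type and less RNA per cell cannot be told apart in whole-uterus RNA. Of 10 epithelial markers, 9 had a log2 fold change above 0, and their summed CPM was 2283 to 3999 in the controls and 5534 to 7538 in *Gp130* ecKO. All 10 stromal markers were below 0, with sums of 4418 to 5786 in the controls and 2460 to 3653 in *Gp130* ecKO. All 8 endothelial markers were below 0, with sums of 441 to 1217 and 267 to 439. Smooth muscle sums overlapped (607 to 2891 and 503 to 3079, 6 of 8 markers below 0), as did those of macrophages (386 to 486 and 252 to 543, 6 of 8 below 0), lymphocytes (19.5 to 29.7 and 5.51 to 27.5, 6 of 6 tested below 0) and erythrocytes (179 to 338 and 47.7 to 323, 4 of 5 below 0). No marker was at 0 in all uteri. The part of these differences in the values of the D cyclins and inhibitors was not tested.

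The partners and targets of the D cyclin kinases were read from gene lists chosen with results of these data known. Among 22 other genes of the G1/S machinery, edgeR's quasi-likelihood test called 0 at an FDR of 0.05, and 8 were lower and 2 higher at an unadjusted p below 0.05, beside 12.9% of all tested genes lower and 12.1% higher (median log2 fold change −0.44). The retinoblastoma relatives *Rbl2* (p130, log2 fold change 0.79, SE 0.19, adjusted p = 0.0876) and *Rbl1* (p107, 0.63, SE 0.19, adjusted p = 0.117) were the 2 higher genes, a count no larger than the share of all tested genes would give. *Rbl2* had a CPM of 52.5, 64.8 and 55.1 in control replicates 1 to 3 and 119, 94.9 and 83.4 in *Gp130* ecKO replicates 1 to 3, without overlap. *E2f8*, a repressor E2F, had the smallest p among the lower ones (log2 fold change −1.93, SE 0.58, adjusted p = 0.117), although control 2 overlapped with *Gp130* ecKO.

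Further down the pathway, all 20 E2F target and S phase genes had a log2 fold change below 0, with a median of −0.88, beside 8781 of all 16605 tested genes below 0. At an unadjusted p below 0.05, 11 of the 20 were lower and 0 higher, beside 12.9% and 12.1% of all tested genes, and 0 passed an FDR of 0.05 in edgeR's quasi-likelihood test. *Mcm3* and *Mcm4*, subunits of the replicative helicase, had log2 fold changes of −0.98 (SE 0.27, adjusted p = 0.105) and −1.06 (SE 0.31, adjusted p = 0.114), and *Mybl2*, a transcription factor of cycling cells, had −2.15 (SE 0.62, adjusted p = 0.112). The summed CPM of the list was 1043, 621 and 1149 in control replicates 1 to 3 and 559, 676 and 538 in *Gp130* ecKO replicates 1 to 3. Control 2 lay within the range of *Gp130* ecKO.

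All 16 mitosis genes were likewise below 0, beside 8781 of all 16605 tested genes, with a median of −1.10. Of the 16, 3 were lower at an unadjusted p below 0.05, a share near the 12.9% of all tested genes, and 0 passed an FDR of 0.05 in edgeR's quasi-likelihood test. Every *Gp130* ecKO uterus lay below every control uterus for 5 of the 16, beside 15.6% of all tested genes, and above for 0, beside 15.7%. The summed CPM of the 16 genes was 559, 309 and 396 in control replicates 1 to 3, and 63.1, 238 and 189 in *Gp130* ecKO replicates 1 to 3, without overlap. *Top2a*, the topoisomerase of dividing cells, had a CPM of 169, 124 and 175 in control replicates 1 to 3 and 25.8, 57.5 and 36.9 in *Gp130* ecKO replicates 1 to 3 (log2 fold change −1.96, SE 0.31, adjusted p = 0.0549). *Cenpe* and *Mki67*, a kinetochore motor and the Ki-67 proliferation antigen, had log2 fold changes of −1.53 (SE 0.49, adjusted p = 0.127) and −1.72 (SE 0.66, adjusted p = 0.167). *Gp130* ecKO 1 had the lowest mitotic sum and also the lowest *Ccnd1*, *Ccnd3*, *Cdk4*, *Cdkn1a*, *Cdkn2a* and *Cdkn2c* CPM of the 6 uteri. The same uterus had the highest epithelial marker sum (7538) and the lowest stromal (2460) and endothelial (267) marker sums. A relation among these values was not tested.

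Among 15 genes that control the turnover of D cyclins and p27, 1 was lower and 2 higher at an unadjusted p below 0.05, which is near the 12.9% and 12.1% of all tested genes, and the median was −0.01. *Cks1b*, a cofactor of the ubiquitin ligase that marks p27 for degradation, was the lower gene. Its CPM was 44.0, 25.99 and 37.9 in control replicates 1 to 3 and 17.4, 15.5 and 20.6 in *Gp130* ecKO replicates 1 to 3, without overlap (log2 fold change −1.01, SE 0.25, adjusted p = 0.0906). *Gsk3b*, a kinase that phosphorylates cyclin D1 ahead of its degradation, and *Ambra1*, the substrate receptor of a D cyclin ubiquitin ligase, were the higher genes, with log2 fold changes of 0.78 (SE 0.24, adjusted p = 0.117) and 0.54 (SE 0.19, adjusted p = 0.154).

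The 15 p53 target genes besides *Cdkn1a* were divided, with 5 lower and 3 higher at an unadjusted p below 0.05, beside 12.9% and 12.1% of all tested genes, and 0 at an FDR of 0.05 by edgeR's quasi-likelihood test (median −0.48). *Phlda3*, an inhibitor of Akt, had a CPM of 34.7, 24.4 and 43.1 in control replicates 1 to 3 and 12.2, 13.2 and 11.03 in *Gp130* ecKO replicates 1 to 3 (log2 fold change −1.49, SE 0.25, adjusted p = 0.0616). The nuclease gene *Aen* was lower too (−1.15, SE 0.29, adjusted p = 0.0922), whereas *Ccng1*, which encodes cyclin G1, was higher in all *Gp130* ecKO uteri (1.21, SE 0.31, adjusted p = 0.0941).

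Of 25 transcription regulators known to act on genes of the set, 1 passed an FDR of 0.05 in edgeR's quasi-likelihood test, beside 0.157% of all tested genes. *Stat5b*, a transcription factor of cytokine and hormone signals, rose from a CPM of 43.0, 46.4 and 43.3 in control replicates 1 to 3 to 102, 101 and 109 in *Gp130* ecKO replicates 1 to 3 (log2 fold change 1.23, SE 0.14, adjusted p = 0.0430). Its adjusted p was 0.0178 without control 2 and 0.103 to 0.137 without any other uterus, 0.0593 in the legacy form of the fit and 0.0818 with the replicate number as a block, with a log2 fold change of 1.17 or more under all alternatives. Of the whole list, 6 were lower and 5 higher at an unadjusted p below 0.05, beside 12.9% and 12.1% of all tested genes, and the median was 0.07.

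**Figure D4:**
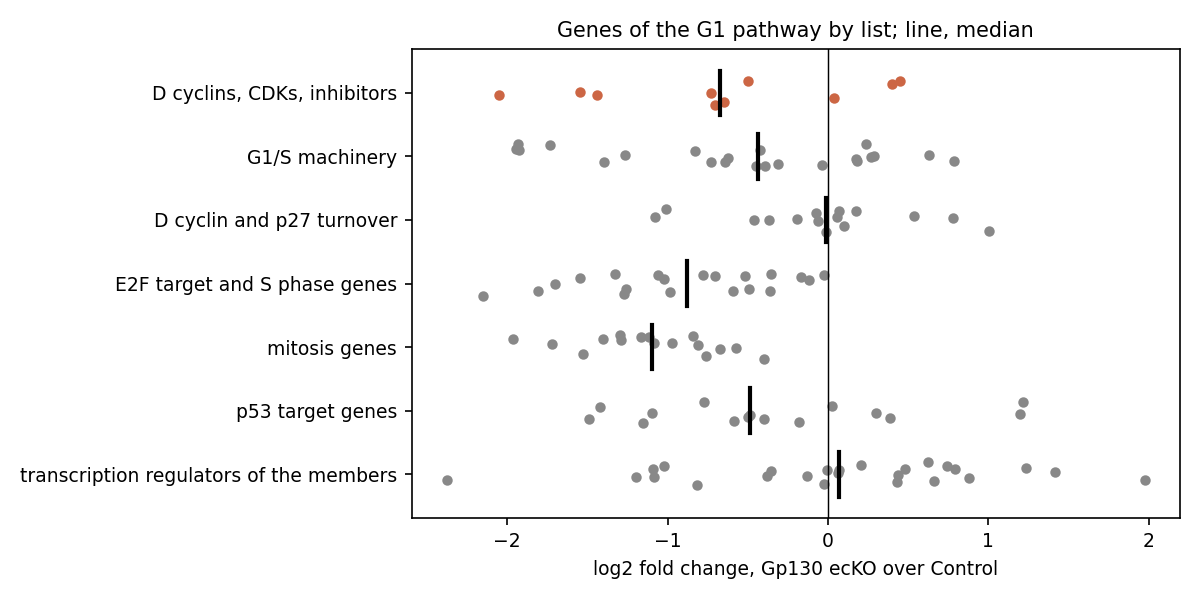
Log2 fold change of *Gp130* ecKO over control (horizontal axis) for each tested gene of the set and of 6 lists of the G1 pathway, 1 point per gene with small vertical offsets and a black line at the median. All points of the E2F target and mitosis lists lie below 0, with medians of −0.88 and −1.10, while the turnover genes centre on −0.01.

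The genes whose log2(CPM + 0.5) over the 6 uteri was most like that of *Ccnd3*, among 10249 other tested genes with a mean CPM of at least 10, were *Tubb6* (Pearson r = 0.998), *Sirpa* (0.997) and *Gsdmd* (0.996). For *Cdkn1a*, compared with 10250 genes, they were *Polr2c* (0.996), *Fth1* (0.993) and *Rbpms* (0.992). The 6 points share the libraries and the difference between groups, and 169 and 84 genes had an r above 0.95 with *Ccnd3* and *Cdkn1a*.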

How the data were processed

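RNA of 3 control and 3 *Gp130* ecKO uteri was read from strand-specific poly(A) libraries. Per the labels and the methods, the authors trimmed reads with fastp 0.23.2, removed ribosomal RNA reads, mapped to GRCm39 with STAR 2.7.10a and deposited RSEM 1.3.3 expected counts, which are not normalized, together with TPM, scaled by the authors for effective length and depth. Reads that fit several genes are apportioned by RSEM. The annotation version and the strand setting of the counting are not given in the sources used here. The deposited FPKM was not used.

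Rounded expected counts entered edgeR 4.0.16 (R 4.3.3): filterByExpr by group (16605 genes), TMM, glmQLFit and glmQLFTest without covariates, Benjamini-Hochberg adjustment, FDR 0.05. SE is the log2 fold change over the square root of F. TPM was used for levels between genes, without a test. Single members were also compared by an exact permutation test of log2(CPM + 0.5). Alternatives were DESeq2 1.42.0, limma-voom (limma 3.58.1), edgeR's other tests, scalings and filters, a replicate block and each uterus left out. Symbols and coordinates are from GENCODE M39, which holds 56017 of the 56748 identifiers.

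The members and the gene lists were chosen with earlier results of these data known. Named genes are all 10 members, list genes past FDR 0.05 or otherwise the 3 of each list with the smallest p, genes overlapping a member, and the 3 genes most alike to the D cyclin and the inhibitor with the smallest p. *Cdkn2d* was named after its values were seen.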

Additional observations from a re-analysis of the deposited data

How the results depend on the processing

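Of 189 values of single members under the alternatives, 5 reversed in direction, all of them for *Cdk6*, and 1 crossed the threshold. The others kept their direction and, where a test was made, their side of the threshold (the ratios of mean TPM have no test). *Cdkn1a* passed in DESeq2 (log2 fold change −1.43, adjusted p = 0.0276), the only one of the 10 members called there (1 against 0). *Il6st* also passed in DESeq2 (−0.67, adjusted p = 0.0364). *Cdk6*, at 0.04, was −0.0365 with upper quartile scaling, −0.0246 with library totals, 0.43 as a ratio of mean TPM and −0.0713 to 0.25 with a uterus left out. The number of members at an unadjusted p below 0.05 (6), counted under alternatives chosen after the data were seen, was 1 to 6 with a uterus left out, at 1 without control 1 and 2 without *Gp130* ecKO 2.

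The 26 genes called of all tested (FDR 0.05, more than 2-fold) became 1523 with DESeq2, 1252 with the exact test and 1317 with the likelihood ratio test of edgeR, 7 with the legacy form of the quasi-likelihood fit and 105 without the filter on low counts. With a uterus left out the number was 0 (without *Gp130* ecKO 3) to 843 (without control 2), and 2 or 3 without control 1, control 3, *Gp130* ecKO 1 or *Gp130* ecKO 2. Same-numbered uteri did not deviate together (r = 0.10, 0.07 and −0.20), so the numbers were not taken as pairs. With the replicate number as a block, 6 genes were called, 0 of them members, and 5 members had an unadjusted p below 0.05.

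The low counts of *Cdkn2a* (1 to 41) and *Cdkn2b* (18 to 138) limit their precision, and *Cdkn2a* did not pass a filter of CPM 1 in 3 uteri.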
